A study of Agaricus bisporus with 8 samples.

Results

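The 25 genes described here came from mycelium of the button mushroom Agaricus bisporus. By rank they were bright in every channel of the array series, and their deposited drought ratios stayed under a set limit. That limit was met on the deposited scale, and most of the genes passed it on another scale given below. A gene was taken when its net signal, the spot's median minus the local background, was among the 400 highest in each of 16 channels. Its deposited log2 ratio of drought over irrigated also had to stay under 1 in size on all 8 arrays. Of the 10413 genes on the array, 92 were among the 400 brightest in every channel, and 25 of these stayed within the ratio limit. The other 67 bright genes passed the limit on at least 1 array. The 25 genes were thus chosen by their brightness and their drought ratio, and these measures are given as a description, without a test.

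All samples were mycelium of var bisporus strain H97 grown from agar cultures on hay in closed mesocosms, which had been watered for 3 weeks either with plain water or with 50 µM riboflavin. Watering then went on (irrigated) or was stopped (drought), and mycelium was taken after 3 or 7 days, which gave 4 groups (water or riboflavin, day 3 or day 7) of 2 arrays each. Each 2-colour array carried droughted mycelium in one dye and irrigated mycelium of the same supplement and day in the other, with drought in Cy3 in replicate 1 and in Cy5 in replicate 2. The labels number these arrays both as separate replicates and as dye swaps of the same biological replicate, and nothing says that they came from separate cultures, so the p-values below reflect array-to-array spread that may be technical. All groups share the strain, the hay and the mesocosm, and the tissue label names mycelia only.

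Mycelium is the vegetative, filamentous body of the fungus, which grows through plant litter and compost and degrades it with secreted enzymes. Riboflavin, vitamin B2, is the precursor of the flavin cofactors FMN and FAD, which carry electrons in respiration and in many oxidoreductases. Genes whose transcripts change little across conditions are used in expression work as references against which other genes are measured, and steadiness has to be shown separately for each condition. In a sample of whole mycelium, fewer living cells and less of a transcript per cell cannot be told apart.

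All 25 genes had a locus tag in RefSeq's Agabi_varbisH97_2 assembly, but no gene symbol, so their roles are not given. Of the 10413 array genes, 88 had a symbol. Among the 67 bright genes that passed the ratio limit, 2 had one. SDH1, named for a subunit of succinate dehydrogenase in the respiratory chain, had net signals of 36.3 to 508 scanner units. CytC2, named for the electron carrier cytochrome c, reached 82.3 to 2311. The tissue label could be checked only against markers with a symbol. The laccase genes lcc1 and lcc2, whose enzymes oxidise lignin and phenols, were well above background in 0 of 16 channels each, and the manganese peroxidase MnP in 1 of 16. These mycelial markers were thus at or near background, and no fruit body marker had a symbol.

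Bright is a matter of rank here. Member net signals lay between 15 and 276 scanner units in all 16 channels, whereas the brightest gene of a channel gave 121983 to 400207. The members' median per channel was 36 to 113 units, against 90.3 to 303 for the other 67 bright genes and 4.5 to 36.5 for all genes. Together the 25 genes took 0.150% to 0.256% of a channel's summed net signal, and the 67 others took 63.3% to 93.1%. The rank of a probe also depends on how its sequence hybridises, so the order of the genes is an order of scanner brightness.

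**Figure D1:**
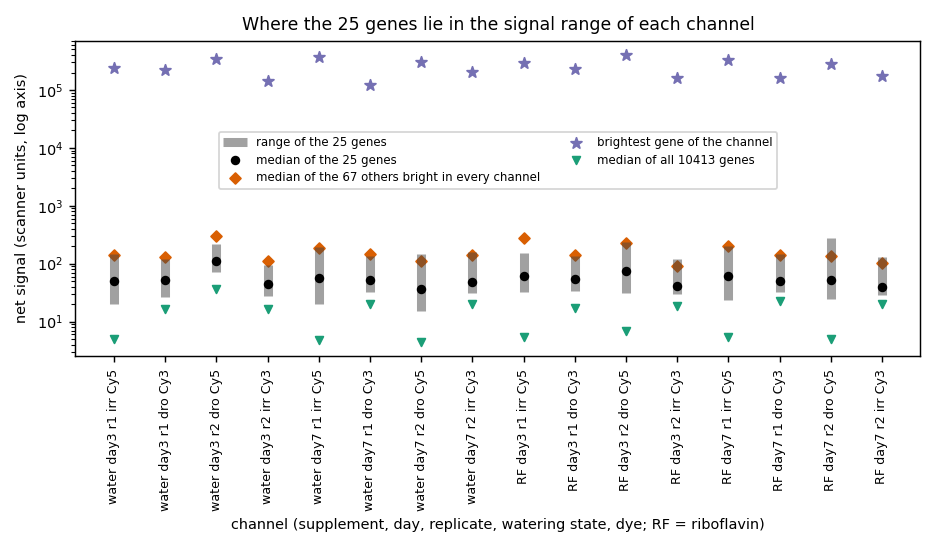
Net signal in scanner units (log axis) in each of the 16 channels. Grey bars give the range of the 25 genes, circles their median, diamonds the median of the 67 other bright genes, triangles the median of all 10413 genes and stars the brightest gene; the 25 genes lie between 15 and 276 units, far below the stars.

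Most members were nevertheless measured above background in every channel. All 25 members carried this flag in 13 of 16 channels. In the other channels 24 did so in the drought channel of water day 7 replicate 2 and 24 in the irrigated channel of riboflavin day 3 replicate 2. In the irrigated channel of riboflavin day 7 replicate 2, 20 members did so, among 226 of all genes. The net signal at rank 400 was 15 to 69.5 units, so the lowest members stood next to the cut. AGABI2DRAFT_118805 was just inside it with rank 398 and 26.5 units in the drought channel of water day 3 replicate 1, and AGABI2DRAFT_119346 was just outside with rank 401 and 29 units in its lowest channel. AGABI2DRAFT_121648 (rank 389) and AGABI2DRAFT_114833 (rank 382) were also just inside, and AGABI2DRAFT_118972 (rank 403) and AGABI2DRAFT_193611 (rank 441) just outside.

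The 6 brightest members by mean rank were AGABI2DRAFT_115419 (mean rank 62.2), AGABI2DRAFT_192247 (66.6), AGABI2DRAFT_150982 (72.4), AGABI2DRAFT_194141 (77.5), AGABI2DRAFT_193627 (92.3) and AGABI2DRAFT_177062 (96.1). The lowest was AGABI2DRAFT_212365 with a mean rank of 227. The net signal of AGABI2DRAFT_115419 had a lowest value of 57.5, a median of 124 and a highest value of 276 units over the 16 channels. For AGABI2DRAFT_192247 these values were 56, 112 and 245 units, and for AGABI2DRAFT_150982 they were 62.5, 104 and 239. AGABI2DRAFT_194141 ran from 69 over a median of 94 to 156 units and kept the highest minimum of the 6. The ranges of these 4 genes overlapped widely. They are pooled over channels that differed in brightness, so they do not give the order of the genes within a channel.

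AGABI2DRAFT_193627 ran from 32.5 over a median of 76.5 to 169 units, and AGABI2DRAFT_177062 from 36.5 over 83.8 to 202 units. Both pooled ranges overlapped with those of the 4 genes above them. At the other end, AGABI2DRAFT_212365 gave 15 to 45 units in 15 channels and 129 in the drought channel of water day 3 replicate 2. AGABI2DRAFT_118805 likewise gave 20 to 52.5 units in 15 channels and 160 in that channel. The same channel stood apart for the whole array: the median over all genes was 36.5 units there and 4.5 to 6.75 units in the other Cy5 channels. The median of all genes and the members were thus high in the same channel.

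**Figure D2:**
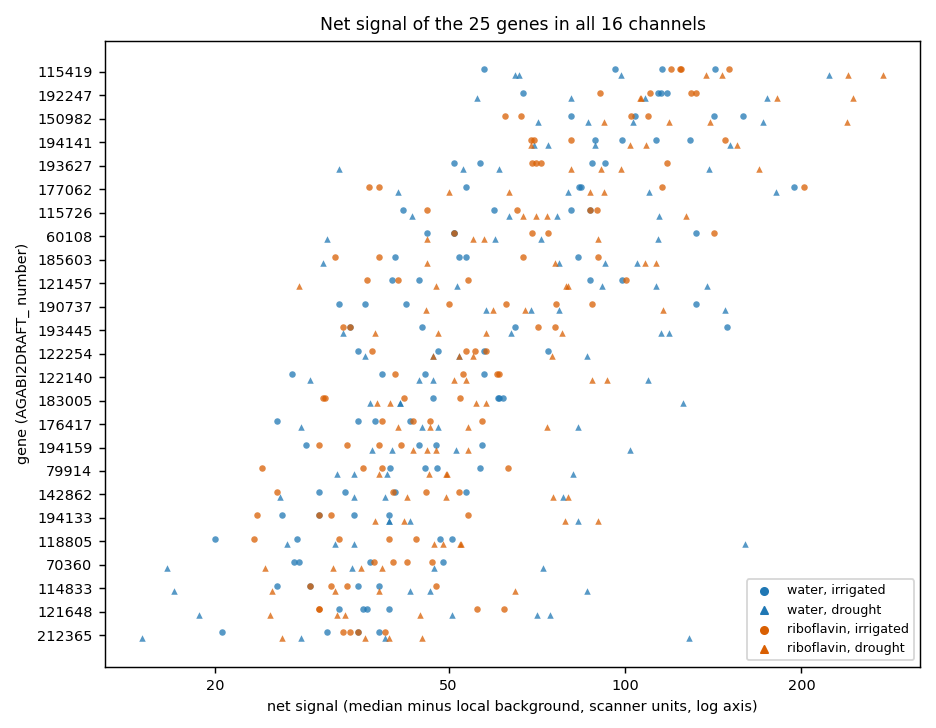
Net signal of each of the 25 genes in all 16 channels (scanner units, log axis), ordered by mean rank. Colour gives the supplement and shape the watering state; each gene has 16 points, and the right-most water drought point of many lower genes, such as 160 units for AGABI2DRAFT_118805, comes from water day 3 replicate 2.

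Repeat spots show how finely these signals are measured. Of the 25 genes, 9 had 2 spots listed under the same gene on the array, which gave 144 pairs over 16 channels. The log2 net signals of the spots of a pair differed by a median of 0.17, by up to 0.46 in 90% of pairs, and by at most 1.57, for AGABI2DRAFT_79914. The median was 0.13 in Cy3 and 0.21 in Cy5. The 42 other bright genes with 2 spots had a median of 0.10. For AGABI2DRAFT_79914 the same spot was the brighter in most channels, so its differences are not random error alone. On water day 3 replicate 1 its spots gave 24 and 71.5 units in Cy5 and 24 and 45 in Cy3. The order was turned in Cy5 of riboflavin day 7 replicate 2 (51 and 48). The remaining 16 members had 1 spot each, and their error within an array was not measured.

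Before the ratios, the agreement of the arrays has to be given. Across 632 tested genes with a locus tag, the log2 drought-over-irrigated ratios of replicates 1 and 2 correlated at 0.37 (water day 3), 0.56 (water day 7), -0.39 (riboflavin day 3) and -0.49 (riboflavin day 7), each turned by the labelled dyes. These ratios were made with a background offset of 50 units, not the 16 of the deposited ratios. Genes are not independent replicates, so the correlations are descriptions. For the 25 members alone the 4 values were 0.11, 0.22, 0.37 and 0.23. Their range of ratios was narrowed by the choice, which limited the deposited ratios. The watering state of the riboflavin replicate 2 channels is therefore taken from the labels only, and the larger differences that rest on it are given below also without those arrays. Exchanging their channels turns a ratio's sign but leaves its size, so it does not alter which genes are members.

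The deposited ratios of the members stayed within the limit by very different margins. Closest to it were AGABI2DRAFT_115419 with 0.96 on riboflavin day 7 replicate 1, AGABI2DRAFT_185603 with 0.95 on riboflavin day 3 replicate 1 and AGABI2DRAFT_190737 with 0.94 on riboflavin day 7 replicate 1. Just outside were AGABI2DRAFT_186748 with 1.00, AGABI2DRAFT_76138 with 1.03 and AGABI2DRAFT_189493 with 1.04. The SD of a member's 8 ratios had a median of 0.42 and ran from 0.08 to 0.65, against a median of 1.12 in the 67 other bright genes and of 0.26 over all genes on the array. The 25 genes were thus steadier than the other bright genes, as the rule demands, and less steady than the typical gene, most of which lay near background.

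AGABI2DRAFT_212365 had the smallest spread, with ratios of -0.03 and -0.07 on water day 3, -0.12 and -0.08 on water day 7, 0.01 and -0.02 on riboflavin day 3, and 0.10 and -0.18 on riboflavin day 7 (replicates 1 and 2 in each). All 8 lay within 0.2 of 0. AGABI2DRAFT_193445 (SD 0.25) and AGABI2DRAFT_118805 (SD 0.26) followed. The largest spread was that of AGABI2DRAFT_190737, whose ratios were 0.73 and -0.47 on water day 3, 0.29 and 0.13 on water day 7, 0.37 and -0.69 on riboflavin day 3, and 0.94 and -0.82 on riboflavin day 7. Its replicates lay on opposite sides of 0 in 3 of the 4 groups. AGABI2DRAFT_150982 (SD 0.56) and AGABI2DRAFT_194141 (SD 0.53) were next.

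**Figure D3:**
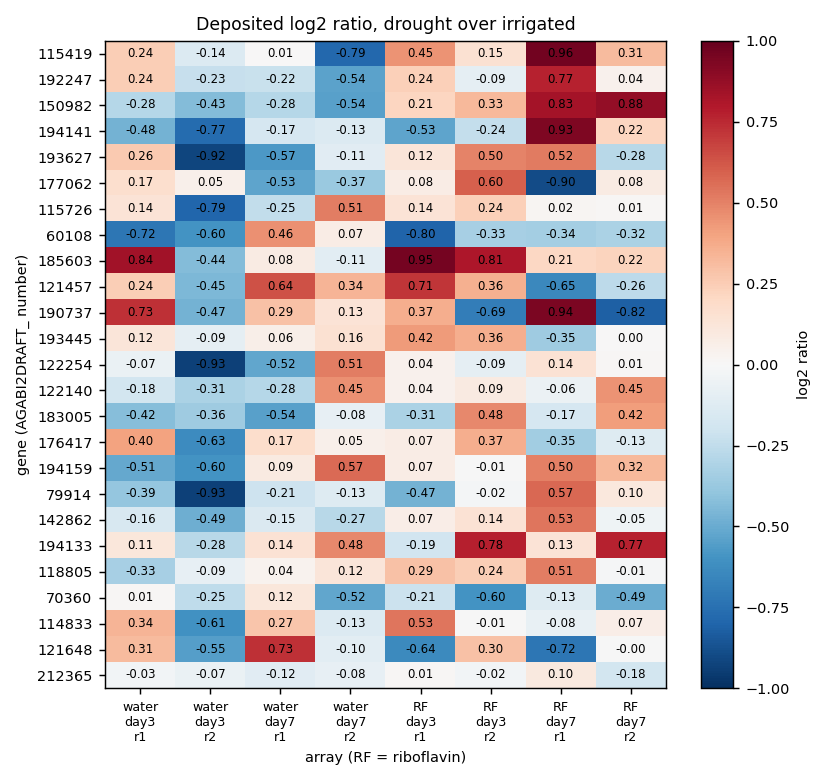
Deposited log2 ratio of drought over irrigated for each of the 25 genes (rows, ordered by mean rank) on each of the 8 arrays (columns), printed in the cells and coloured from -1 (blue) to 1 (red). The column of water day 3 replicate 2 is blue for 24 of 25 genes, and the bottom row, AGABI2DRAFT_212365, is pale throughout.

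No member had the same sign on all 8 arrays, against 0.298% of all genes that were above 0 and 0.432% that were below 0 on every array. On the 4 water arrays, 6 members (AGABI2DRAFT_150982, AGABI2DRAFT_194141, AGABI2DRAFT_183005, AGABI2DRAFT_79914, AGABI2DRAFT_142862 and AGABI2DRAFT_212365) were below 0 on each, beside 5.72% of all genes, and 0 were above 0 on each, beside 5.24%. On the 4 riboflavin arrays as labelled, 4 members (AGABI2DRAFT_115419, AGABI2DRAFT_150982, AGABI2DRAFT_115726 and AGABI2DRAFT_185603) were above 0 on each, beside 5.21%, and 2 (AGABI2DRAFT_60108 and AGABI2DRAFT_70360) below, beside 5.14%. The rule used these ratios, so nothing is read from the counts. The sign depended on the scaling: on water day 3 replicate 2, 24 of 25 deposited ratios were below 0, as were 21 after a background offset of 50 and 20 of the Feature Extraction ratios. Unnormalised net signals gave 25 of 25 above 0 on that array, with a member median of 1.24 beside 1.17 for all genes.

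Steadiness also depended on how the ratio was made. The deposited ratios carry a background offset of 16 scanner units, which pulls ratios of dim genes towards 0. Feature Extraction's own log ratios of the same spots passed 1 in size on at least 1 array for 17 of the 25 genes, with 2.25 for AGABI2DRAFT_194133 as the largest. The 8 genes that stayed under 1 by both were AGABI2DRAFT_115419, AGABI2DRAFT_192247, AGABI2DRAFT_193627, AGABI2DRAFT_115726, AGABI2DRAFT_193445, AGABI2DRAFT_176417, AGABI2DRAFT_70360 and AGABI2DRAFT_212365. AGABI2DRAFT_115419 did so narrowly, at 0.99.

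**Figure D4:**
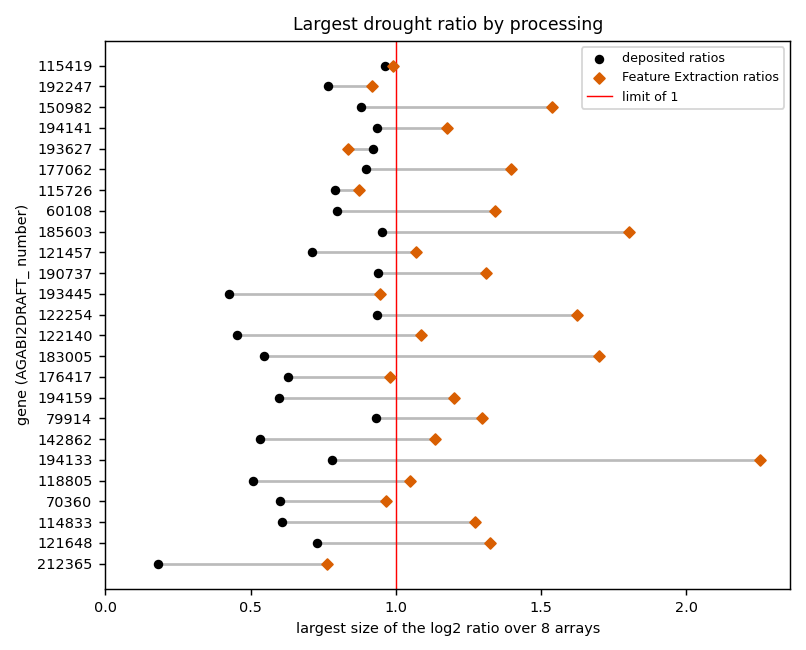
Largest size of the log2 drought-over-irrigated ratio over the 8 arrays for each of the 25 genes, from the deposited ratios (circles) and from Feature Extraction's log ratios (diamonds). The red line marks the limit of 1; all circles lie left of it and 17 diamonds lie at or right of it.

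The level itself, the mean log2 signal of an array's channels, was compared in the same sets. Over the 8 arrays and after normalization between them, its SD had a median of 0.20 in the 24 members with complete values, 0.48 in the 67 other bright genes and 0.15 in all 634 tested genes. On this scale, which includes the background offset of 50 units, AGABI2DRAFT_212365 again varied least (0.09), followed by AGABI2DRAFT_70360 and AGABI2DRAFT_114833. AGABI2DRAFT_190737 (0.50), AGABI2DRAFT_115419 (0.39) and AGABI2DRAFT_192247 (0.35) varied most. From net signals with neither offset nor normalization the median SD was 0.38 in the 25 members and 0.57 in the 67 other bright genes. It was 0.77 in all genes on the array, most of which lay near background. Low net values were raised to a floor before logs were taken. That set is not the 634 tested genes, so the order against the typical gene cannot be compared between the scales. On the net signal scale AGABI2DRAFT_194141 (0.15), AGABI2DRAFT_150982 (0.19) and AGABI2DRAFT_70360 (0.23) varied least. AGABI2DRAFT_192247 (0.36) lay below the members' median, and AGABI2DRAFT_212365 (0.52), AGABI2DRAFT_115419 (0.52) and AGABI2DRAFT_190737 (0.56) lay above it. Which member was steadiest in level thus depended on the scale.

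The genes shared few features that the rule had not used. Their annotated gene length had a median of 1198 bp (159 to 3356 bp), against 1092 bp in the 67 other bright genes and 1497 bp in all genes. Genes under 500 bp made up 24.0% of the members, 25.4% of the other bright genes and 9.63% of all genes, so short genes were about as frequent in both bright sets. A second spot was present for 36% of members, 62.7% of the other bright genes and 46.0% of all genes. Most members were scattered over the assembly. AGABI2DRAFT_60108 and AGABI2DRAFT_115419 had 1 annotated gene between them, and AGABI2DRAFT_194133, AGABI2DRAFT_194141 and AGABI2DRAFT_194159 followed each other with 9 and 24 genes between.

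The comparison of riboflavin with water was not part of the rule, although the rule limits how low a member can be on any array. It asks whether mycelium that had received riboflavin held more or less of these transcripts, separately under irrigation and under drought. All 16 channels were fitted together with limma on the log2 signal after a background offset of 50 units. Because that offset is about as large as the members' own signals, differences on this scale understate those of the net signal. Of the 25 members, 24 were tested among 634 genes. AGABI2DRAFT_193445 was left out because its spot on water day 3 replicate 1 had been marked as non-uniform. With that spot kept, none of its comparisons was called.

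In irrigated mycelium no member was called at an adjusted p under 0.05, and the fit called 0% of all tested genes. At an unadjusted p under 0.05 the members numbered 2 of 24, beside 18.8% of all tested genes. Of the 24 differences, 13 were above and 11 below 0, with a median of 0.04 beside 0.01 for all tested genes. The most positive were AGABI2DRAFT_115419 and AGABI2DRAFT_192247, and the most negative AGABI2DRAFT_183005 and AGABI2DRAFT_150982.

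The normalised log2 signal of AGABI2DRAFT_183005 in irrigated mycelium was 6.87 and 6.57 on water day 3, 6.78 and 6.86 on water day 7, 6.56 and 6.37 on riboflavin day 3 and 6.53 and 6.45 on riboflavin day 7 (replicates 1 and 2). All 4 riboflavin values lay below all 4 water values, by a narrow margin, as they did for 8.99% of all tested genes. In net signal the irrigated channels gave 60.75, 47, 62 and 61 units with water. With riboflavin they gave 52.25, 30.5, 42 and 30.75 units, so the raw values overlapped. The difference in normalised signal was -0.29 ± 0.09 (SE, 95% interval -0.50 to -0.09), with a limma adjusted p of 0.200. AGABI2DRAFT_183005 was the only member whose irrigated channels were separated in this way, and 0 members had all 4 riboflavin values above the water values, beside 3.15% of all tested genes. For AGABI2DRAFT_115419 the irrigated values were 6.80 and 7.24, then 7.02 and 7.57 with water, and 7.35 and 7.78, then 7.31 and 7.90 with riboflavin. These overlapped, replicate 1 being lower than replicate 2 in each group, and the difference was 0.43 ± 0.17 (95% interval 0.03 to 0.83, limma adjusted p = 0.241). AGABI2DRAFT_192247 differed by 0.32 ± 0.23 and AGABI2DRAFT_150982 by -0.23 ± 0.23, with limma adjusted p-values of 0.569 and 0.733. With 1 array left out, AGABI2DRAFT_192247 ran from 0.10 (without riboflavin day 7 replicate 2) to 0.54 (without riboflavin day 7 replicate 1) and AGABI2DRAFT_150982 from -0.44 (without water day 7 replicate 1) to -0.03 (without water day 7 replicate 2). Without both riboflavin replicate 2 arrays AGABI2DRAFT_183005 stayed at -0.29, while AGABI2DRAFT_115419 was at 0.26 and AGABI2DRAFT_192247 at 0.04.

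In droughted mycelium again no member was called, while 0.473% of all tested genes were, all of them higher with riboflavin (3 genes). At an unadjusted p under 0.05 the members numbered 4 of 24, all higher, beside 6.94% of all tested genes in either direction. Of the 24 differences, 17 were above and 7 below 0, and their median was 0.11 beside 0.04 for all tested genes.

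AGABI2DRAFT_115419 had droughted values of 6.93 and 7.15 on water day 3, 7.19 and 7.41 on water day 7, 7.74 and 8.01 on riboflavin day 3 and 7.92 and 8.13 on riboflavin day 7. The riboflavin values all lay above the water values, which held for 2 of 24 members and 4.1% of all tested genes; the opposite held for 0 members and 0.789% of all tested genes. The difference was 0.78 ± 0.17 (95% interval 0.38 to 1.18), with a limma adjusted p of 0.157. Replicate 1 was lower than replicate 2 in each group. With a term for replicate number added to the fit the gene was called (limma adjusted p = 0.00120), among 4 of 634 tested genes called. Of 20 alternative settings this was the only 1 that called it. The replicate number is also the dye orientation and does not establish that the samples are paired. In net signal the riboflavin drought channels gave 138, 241, 147 and 276 units and the water drought channels 65, 223, 98.5 and 66, so the raw values overlapped through the bright channel of water day 3 replicate 2.

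AGABI2DRAFT_193627 had droughted values of 6.90 and 6.57, then 6.67 and 6.73 with water, and 7.35 and 7.56, then 7.27 and 7.19 with riboflavin. These groups did not overlap either. Its net signals were 61, 139, 53 and 32.5 units in the water drought channels and 91, 169, 81 and 98.5 with riboflavin, and these overlapped through water day 3 replicate 2. The difference was 0.63 ± 0.13 (95% interval 0.32 to 0.93, limma adjusted p = 0.130). Without water day 3 replicate 1, which leaves 1 array in that group, it was 0.72. In irrigated mycelium the same gene ranged from 6.75 to 7.12 with water and from 6.90 to 7.28 with riboflavin, which overlapped. Whether the riboflavin difference of either gene depended on watering is the ratio comparison that the rule used and was not tested.

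Without both riboflavin replicate 2 arrays, the difference in drought was 0.61 for AGABI2DRAFT_115419 and 0.55 for AGABI2DRAFT_193627. With the channels of those arrays exchanged it was 0.60 and 0.48, with limma adjusted p-values of 0.273 and 0.178. Direction was kept under each of these settings. The most negative members in drought were AGABI2DRAFT_121457 with -0.33 ± 0.16 (limma adjusted p = 0.721) and AGABI2DRAFT_121648 with -0.21 (limma adjusted p = 0.831).

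**Figure D5:**
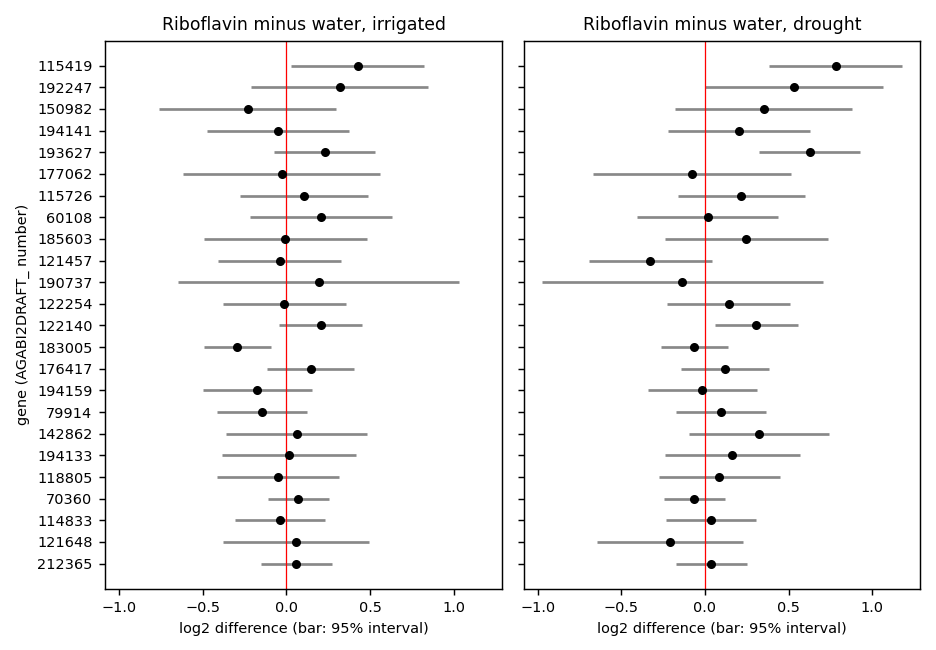
Difference of normalised log2 signal between riboflavin and water (means of the days) in irrigated (left) and droughted (right) mycelium for the 24 tested members; points are limma estimates and bars their 95% intervals. AGABI2DRAFT_115419 (0.78) and AGABI2DRAFT_193627 (0.63) lie farthest right under drought, and no gene passed an adjusted p of 0.05.

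The intervals give the size of the differences on this scale relative to the array-to-array spread, which may be technical. For riboflavin against water the 95% interval stayed within 1 log2 unit of 0 for 23 of 24 members under irrigation and 22 of 24 under drought, beside 76.7% and 79.0% of all tested genes. The exceptions were AGABI2DRAFT_190737 under irrigation and AGABI2DRAFT_115419 and AGABI2DRAFT_192247 under drought. The rule limited the members' ratios, and with them part of the spread that sets these widths, so nothing is read from the shares. A p that misses the threshold does not show that the levels were equal.

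Between day 7 and day 3, no member was called, and the fit called 0% of all tested genes in irrigated and 0% in droughted mycelium. At an unadjusted p under 0.05 there was 1 member under irrigation and there were 2 under drought, beside 3.94% and 4.42% of all tested genes. The member medians were 0.02 and 0.09, beside -0.004 and 0.03 for all tested genes. The 95% interval stayed within 1 log2 unit for 23 of 24 members in each state, the exception being AGABI2DRAFT_190737 in both. Of all tested genes, 81.7% (irrigated) and 80.1% (drought) did so. The rule limited part of the spread that sets the members' widths, so nothing is read from these shares either.

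AGABI2DRAFT_60108 had irrigated values of 7.53 and 6.63 (water) and 7.32 and 7.12 (riboflavin) on day 3, and 6.54 and 6.63 (water) and 6.84 and 6.87 (riboflavin) on day 7. With either supplement both day 7 values lay below both day 3 values, narrowly so with water, where the closest were 6.634 on day 3 and 6.627 on day 7. How many of all tested genes did so was not counted, so nothing is read from it. In net signal the irrigated water channels gave 132 and 51 units on day 3 and 51 and 46 on day 7, so the days met at 51 units. With riboflavin the irrigated channels gave 142 and 74 units on day 3 and 69.5 and 51 on day 7. The estimate was -0.43 ± 0.19 (limma adjusted p = 1.00) and ran from -0.66 to -0.21 with 1 array left out, the ends being those without water day 3 replicate 2 and replicate 1. AGABI2DRAFT_194141 had the other sign in each state, with -0.25 ± 0.19 under irrigation and 0.44 ± 0.19 under drought (limma adjusted p = 1.00 and 0.913). AGABI2DRAFT_177062 differed by 0.34 under irrigation, and by 0.04 to 0.64 with 1 array left out (without riboflavin day 7 replicate 1 and replicate 2). AGABI2DRAFT_190737 had the most positive estimates, 0.39 ± 0.37 and 0.65 ± 0.37, and its droughted values ran from 6.14 to 7.00 on day 3 and from 6.55 to 8.23 on day 7. The drought estimate was 0.18 without water day 7 replicate 2 and 1.11 without water day 7 replicate 1. AGABI2DRAFT_185603 (-0.16) and AGABI2DRAFT_193627 (-0.13) were the most negative under drought. Without both riboflavin replicate 2 arrays the irrigated differences were -0.49 for AGABI2DRAFT_60108, -0.44 for AGABI2DRAFT_194141 and 0.51 for AGABI2DRAFT_177062, and the drought difference of AGABI2DRAFT_194141 was 0.38.

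Whether the change from day 3 to day 7 differed between riboflavin and water was tested as a difference of differences. No member and 0% of all tested genes were called in either watering state. At an unadjusted p under 0.05 there were 0 members under irrigation and 1 under drought, beside 0.789% and 1.74% of all tested genes. Under irrigation the most negative estimates were those of AGABI2DRAFT_190737 (-0.38) and AGABI2DRAFT_70360 (-0.26) and the most positive those of AGABI2DRAFT_115726 (0.28) and AGABI2DRAFT_60108 (0.13).

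AGABI2DRAFT_121457 was that 1 member under drought. With water, its droughted log2 values went from 6.77 and 6.39 (day 3) to 7.51 and 7.55 (day 7), whereas with riboflavin they went from 7.02 and 6.84 (day 3) to 6.74 and 6.30 (day 7). Both day 7 values lay above both day 3 values with water and below them with riboflavin. How many of all tested genes did so was not counted, so nothing is read from this separation. In net signal the water drought channels gave 51.8 and 113 units on day 3 and 138 and 91.3 on day 7, so the days overlapped. The riboflavin drought channels gave 79.3 and 80 units on day 3 and 47.5 and 27.8 on day 7. The estimate was -1.35 ± 0.32 (95% interval -2.09 to -0.62, limma adjusted p = 0.999).

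For AGABI2DRAFT_121457 the estimate was -1.25 without both riboflavin replicate 2 arrays and -1.16 with their channels exchanged. Without riboflavin day 7 replicate 1, which leaves 1 array in that group, it was -1.52. The next most negative estimate under drought was -0.55 for AGABI2DRAFT_190737, and the most positive were 0.28 for AGABI2DRAFT_192247 and 0.22 for AGABI2DRAFT_150982, with standard errors of 0.74, 0.47 and 0.46. Without both riboflavin replicate 2 arrays these were -0.04, 0.12 and 0.006.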

How the data were processed

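Total RNA of 8 sample pairs was hybridised to 8 2-colour Agilent arrays. The scanner output was made with Feature Extraction 11.5.1.1, per the file headers, and these deposited tables give the median spot and local background intensity of each channel, processed intensities, log10 ratios of red over green, and other per-spot flags (well above background, non-uniform, saturated). The authors also deposited a table of log2 ratios (red over green), for which the submitters' processing notes name limma. Normexp with an offset of 16 and loess rebuilt these ratios to within 5e-10, so their scale and direction are known. Ratios were turned to drought over irrigated by the labelled dyes.

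Net signals were averaged over the spots of a gene. For the tests, median signals were corrected with normexp (offset 50), normalized by loess within arrays and by Aquantile between them, and fitted with limma 3.58.1 under R 4.3.3 (separate-channel fit, intraspot correlation 0.148). The fit had 1 term per supplement, day and watering state and 1 for dye, with 7 residual degrees of freedom, to which eBayes added 1.60. A gene was tested if, in some group, both arrays had it well above background in either channel (637 genes), less 3 with a missing value. P-values were adjusted by Benjamini-Hochberg over all 634. The fit was tested on simulated data. No gene spot was saturated, and 0 to 4 gene spots per array were left out as outliers. The number of arrays limits the precision.

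The members, lists and tests were chosen with earlier results of these data known. Genes named are the 6 brightest, the 3 smallest and 3 largest spreads of ratio and of level, the 2 highest and 2 lowest differences of each comparison, and genes at the rule's limits; members called under an alternative, alike in sign or next to each other, those under the limit by both ratios and the symbols SDH1 and CytC2 were added after their values were seen. Lists by gene function could not be applied to genes without symbols.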

Additional observations from a re-analysis of the deposited data

Results flagged for a closer look

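AGABI2DRAFT_150982 was singled out because its deposited log2 ratio of drought over irrigated lay below 0 on every water array and above 0 on every riboflavin array. The ratios were -0.28 and -0.43 on water day 3, -0.28 and -0.54 on water day 7, 0.21 and 0.33 on riboflavin day 3, and 0.83 and 0.88 on riboflavin day 7. The riboflavin mean exceeded the water mean by 0.949. How many of all genes on the array had this pattern was not counted. The difference was not tested, since these ratios had chosen the gene. With an offset of 50 the ratio of water day 7 replicate 2 was 0.14, and by Feature Extraction that of riboflavin day 3 replicate 1 was -0.06, so in each case 1 of 8 arrays left the pattern. Unnormalised net signals gave 1.09 on water day 3 replicate 2 and -0.25 on riboflavin day 3 replicate 1. The signs of both riboflavin replicate 2 arrays rest on the labels. Exchanging their channels would turn the signs of 0.33 and 0.88, and the pattern would then not hold. Whether those channels were exchanged was not tested.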

How the results depend on the processing

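The choice of 25 genes moved to 15 with the 300 brightest, 16 with a ratio limit of 0.8, 38 with a limit of 1.5 and 8 with Feature Extraction ratios; leaving out 1 array gave 26 to 34, the most without water day 3 replicate 2. Riboflavin against water under irrigation (0 genes called) gave 68 with Feature Extraction signals, 2 with quantile normalization, 1 with none after loess and 91 with each dye pair as 1 value, and 0 to 61 with 1 array left out (61 without water day 3 replicate 1, 22 without replicate 2). Under drought (3 called) it gave 0 with an offset of 16, with Feature Extraction signals, with none after loess, with an intensity trend and with dye pairs as 1 value, 1 with quantile normalization, 9 with riboflavin replicate 2 channels exchanged, 18 without those arrays, and 0 to 32 with 1 array left out. Day 7 against day 3 gave 1 under irrigation with dye pairs as 1 value, and 0 to 26 (irrigated) and 0 to 32 (drought) with 1 array left out. The differences of day changes gave 0 to 29 and 0 to 36. The upper end came from leaving out water day 3 replicate 1 in all 6 comparisons. The causes were not tested. With 1 array left out a group rests on 1 array, so no call of a member is read from those fits. Without water day 3 replicate 1, AGABI2DRAFT_60108 was at 0.43 for riboflavin against water under irrigation.

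Same-numbered arrays deviated together most strongly between riboflavin day 3 and riboflavin day 7 (correlations of 0.92 in ratio and 0.34 in level). In the other pairs of groups the correlations were -0.15 to 0.06 in ratio and -0.11 to 0.29 in level. The replicate number is also the dye orientation, so whether it pairs the samples is not settled. The main fit has no replicate term. With a replicate block, 4 genes were called for riboflavin against water under drought, 1 of them a member, AGABI2DRAFT_115419 (0.78, limma adjusted p = 0.00120).

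Of 472 recomputed values of 24 named member differences, 461 kept direction and side of the threshold, 3 passed it and 8 reversed. The 24 differences were the most extreme of each comparison and none was called in the main fit, so the tally does not measure how firm the members' values are. Estimates nearer 0, outside this tally, changed sign in up to 10 of 19 settings, and others in none. Among the 24, AGABI2DRAFT_150982 went to 0.0043 (riboflavin against water, irrigated) and -0.072 (difference of day changes, drought) with channels exchanged. With 1 array left out, estimates ran from -0.38 to 0.050 for AGABI2DRAFT_185603 (day, drought), from -0.30 to 0.58 for AGABI2DRAFT_60108 (difference of day changes, irrigated), and, for that difference under drought, from -1.49 to 0.40 for AGABI2DRAFT_190737, from -0.23 to 0.68 for AGABI2DRAFT_150982 and from -0.012 to 0.54 for AGABI2DRAFT_192247. Mean signals in place of medians were not run. Signals of 15 to 276 units over a median local background of 30 to 81.5 units limit all values.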
